A study of Mus musculus with 20 samples.

Results

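Retinoid metabolism was followed in mouse liver through 8 genes: Rbp4, Rdh7, Dhrs3, Aldh1a1, Aldh1a7, Cyp26a1, Cyp26b1 and Rarb. Aldh1a7 is included as a paralog of Aldh1a1, and whether it acts on vitamin A was not measured. The others carry, interconvert, oxidise, clear or sense vitamin A. The members were chosen by name, as all non-control array probes that carry 1 of these symbols, and this gave 10 probes of 55681 on the array and 8 genes of 34741. All 8 genes and 9 of the 10 probes passed the filter on dim signals, which kept 21998 genes and 30960 probes. Transcripts were measured on 1-colour arrays of 20 livers, 1 array per animal, in 4 groups of 5: null mice (without estrogen receptor alpha, ERα) given estradiol (E2), null mice given placebo, wild-type mice given E2, and wild-type mice given placebo. Every animal had been ovariectomized at 4 weeks of age and was gavaged at 9 weeks with E2 (1 mg/kg) or with placebo, which was castor oil with 5% ethanol. Every animal was anesthetized with ketamine and xylazine and killed 4 hours after gavage. Nulls and wild types came from the same parents. Strain, cage, litter and the deleted part of Esr1 are not stated in the labels. The design asks which liver transcripts answer to E2 and which of these answers need ERα.

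The liver stores most of the body's vitamin A, as retinyl esters in stellate cells, and hepatocytes release retinol into blood bound to retinol-binding protein 4. Inside cells, retinol is reversibly converted to retinal by short-chain and alcohol dehydrogenases, and retinal is irreversibly oxidised to retinoic acid by retinaldehyde dehydrogenases. Retinoic acid binds nuclear receptors (RAR with RXR) that sit on paired half-sites in DNA, and CYP26 enzymes clear it. Cyp26a1, Rarb and Dhrs3 are themselves well-known retinoic acid targets, which closes a feedback loop.

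A level is the log2 intensity relative to its array's 75th percentile, so each unit is a doubling, and levels of different probes cannot be compared. Arrays of the same group correlated at 0.981 to 0.995 across genes, against 0.978 to 0.993 for arrays of different groups, and 51.6% to 70.0% of spots were well above background. The 20 arrays lay on 4 slides scanned on 1 day, and every slide held both genotypes. Esr1, which encodes ERα, checked the genotype labels. Its level was -1.63 ± 0.31 in null livers and 0.60 ± 0.41 in wild-type livers under E2, and -1.61 ± 0.48 in null livers and 0.39 ± 0.25 in wild-type livers under placebo (SD, n = 5 each). The groups did not overlap in either case (limma, adjusted p = 1.81e-05 under E2 and 0.000482 under placebo).

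Promoter sequences are shown for the members called in a comparison below, and for Rarb, whose promoter held a match to the motif searched for. Promoter windows from RefSeq (build GRCm38.p6) of 250 bases before to 50 bases after each start were found for all 8 genes, 13 windows in total. They were searched on both strands for a DR5, the classical retinoic acid response element, written here as a pair of half-sites in the same direction with 5 bases between them, each reading AGGTCA, where the first base may also be G and the third may also be T. Cyp26a1 and Rarb each held 1 match and the other 6 members none, against 32 of 32851 promoter windows (0.0974%). The last 100 bases before each start are given with the DR5 in capitals, Cyp26a1 at chr19:37697708-37697807 on the plus strand and Rarb at chr14:16575477-16575576 on the minus strand.
Cyp26a1: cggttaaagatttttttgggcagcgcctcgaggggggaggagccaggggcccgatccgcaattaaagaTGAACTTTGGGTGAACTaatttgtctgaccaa
Rarb: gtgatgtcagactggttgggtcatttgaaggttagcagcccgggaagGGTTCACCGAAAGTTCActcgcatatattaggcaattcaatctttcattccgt
The match lay at -32 to -16 from the start in Cyp26a1, read on the opposite strand, and at -53 to -37 in Rarb, read on the gene's strand. No member window held a DR2 (the same half-sites with 2 bases between them, found in 0.268% of windows) or the palindromic consensus of the estrogen response element, with 3 free bases in its middle (found in 0.07%). A single half-site, which every DR5 contains 2 of, was found in 43.7% of all windows. A match of letters is a description and does not show binding.

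Aldh1a1 and Aldh1a7 are neighbours on chromosome 19, with probes 49.73 kb apart on mm9 and no protein-coding gene between them in RefSeq order. Aldh1a1 had 2 start windows, and the downstream one is compared here, while the other (chr19:20492333-20492632) was not compared. The pair's promoters were compared position by position without gaps, and they were alike close to the start. Of the 100 bases before each start 94 were identical, and the 6 that differ are in capitals (GRCm38.p6, Aldh1a1 at chr19:20601868-20601967 on the plus strand, Aldh1a7 at chr19:20727557-20727656 on the minus strand).
Aldh1a1: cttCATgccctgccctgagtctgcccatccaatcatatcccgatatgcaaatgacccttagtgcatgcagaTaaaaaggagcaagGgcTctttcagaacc
Aldh1a7: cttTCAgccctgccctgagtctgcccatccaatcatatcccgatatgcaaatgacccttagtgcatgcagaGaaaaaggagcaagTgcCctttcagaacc
Over 200 bases 116 were identical, and over 250 bases 129 were identical and 121 differed. Because no gaps were allowed, an inserted or lost base would also lower these counts. Likeness farther from the start was therefore not determined. The array probes of the pair had a longest shared run of 8 bases out of 60. That run is in capitals in 30 bases of each probe, on mm9. These are the last 30 of the Aldh1a1 probe (chr19:20717794-20717823) and the first 30 of the Aldh1a7 probe (chr19:20767583-20767612, minus strand).
Aldh1a1 probe: gtgacTCCTTGAAgtactcaccacacataa
Aldh1a7 probe: tTCCTTGAActatgtaccatgcatgataac
The probes were compared only with each other and not with the other gene's transcript. Whether either probe also reads the other transcript was therefore not tested.

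Across the 8 genes, the neighbouring pair Aldh1a1 and Aldh1a7 was higher in null livers, and Cyp26a1 was lower in null livers than in wild-type livers under E2. Rbp4, Rdh7, Dhrs3, Cyp26b1 and Rarb passed the test in no comparison. The members were chosen with earlier results of these data known, so shares of all genes are given for scale and do not test enrichment. At an adjusted p under 0.05 over all 21998 genes, 2 members were higher and 0 lower in nulls averaged over treatments, where 0.696% of all genes were called and 0.409% were called higher. Under E2, 1 member was lower and 0 higher in nulls (0.464% of all genes called, 0.386% lower), and under placebo 0 members were called (0.0727%). E2 changed 0 members by this test in wild types (0.318%) and 0 in nulls (0.00455%), and 0 members had E2 effects that differed between genotypes (0.164%). At an unadjusted p under 0.05, 1 member passed for E2 in wild types (8.28% of all genes), 0 for E2 in nulls (6.06%) and 1 for the difference between genotypes (7.39%). The same count was 3 members for nulls under E2 (9.63%), 2 under placebo (10.1%) and 3 averaged over treatments (12.9%). The median log2 difference of the 8 members, nulls minus wild types, was 0.08 averaged over treatments, beside 0.00 over all genes. In whole liver, fewer cells of a type and less RNA per cell cannot be told apart.

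**Figure D1:**
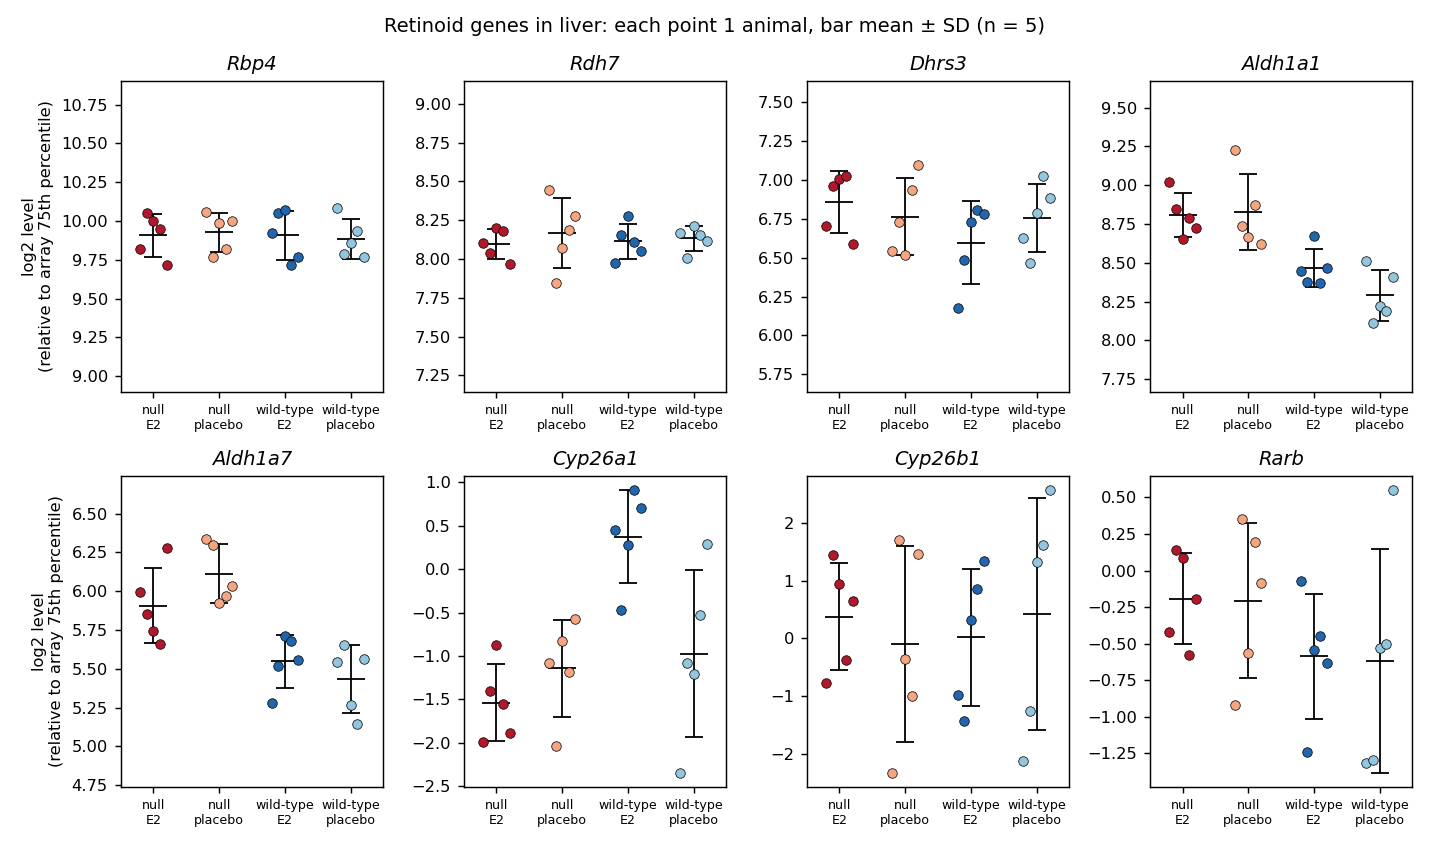
Log2 level (vertical axis, relative to the array's 75th percentile) of the 8 retinoid genes in null E2, null placebo, wild-type E2 and wild-type placebo livers, with 1 point per animal and bars for mean ± SD (n = 5). The vertical axes differ between panels. Aldh1a1 and Aldh1a7 sit higher in both null groups, all 5 null E2 livers lie below all 5 wild-type E2 livers for Cyp26a1, and Cyp26b1 spreads over several units within each group.

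Retinol transport came first in the order of the pathway. Rbp4 (probe at chr19:38191120-38191179, mm9, minus strand) encodes the plasma carrier of retinol that hepatocytes secrete. Its level averaged 9.91 ± 0.14 in null E2 livers, 9.93 ± 0.13 in null placebo livers, 9.91 ± 0.16 in wild-type E2 livers and 9.89 ± 0.13 in wild-type placebo livers (SD, n = 5 each). All 4 groups overlapped. The 95% intervals of its log2 differences were -0.18 to 0.22 for E2 in wild types and -0.22 to 0.18 for E2 in nulls. For nulls minus wild types they were -0.20 to 0.20 under E2 and -0.16 to 0.24 under placebo. A change in Rbp4 beyond 1.18-fold in either direction therefore lies outside all 4 of these intervals.

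Rdh7 and Dhrs3 act on the retinol and retinal step. Rdh7 (chr10:127321146-127321205, minus strand) is a short-chain dehydrogenase that oxidises retinol. It averaged 8.10 ± 0.10 in null E2 livers, 8.16 ± 0.23 in null placebo livers, 8.11 ± 0.11 in wild-type E2 livers and 8.13 ± 0.08 in wild-type placebo livers. The groups overlapped throughout, and its adjusted p ran from 0.959 to 0.980 over the 6 comparisons. Dhrs3 (chr4:144517485-144517544, plus strand) works the other way, reducing retinal to retinol. It averaged 6.86 ± 0.20 in null E2 livers, 6.77 ± 0.25 in null placebo livers, 6.60 ± 0.27 in wild-type E2 livers and 6.76 ± 0.22 in wild-type placebo livers. Its widest separation was nulls against wild types under E2, a log2 difference of 0.26 ± 0.15 (SE, adjusted p = 0.580), with a 95% interval from -0.04 to 0.57.

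Aldh1a1 (chr19:20717764-20717823, plus strand) encodes the main retinaldehyde dehydrogenase of adult liver, which makes retinoic acid. Its level was 9.02, 8.85, 8.65, 8.79 and 8.73 in null livers under E2, against 8.45, 8.37, 8.67, 8.37 and 8.47 in wild-type livers under E2. Under placebo it was 9.23, 8.74, 8.67, 8.87 and 8.62 in null livers, against 8.51, 8.11, 8.22, 8.19 and 8.41 in wild-type livers. All 5 null livers lay above all 5 wild-type livers under placebo, as in 1.85% of genes, while under E2 the lowest null liver was just below the highest wild-type liver. Averaged over treatments, Aldh1a1 was 1.35-fold higher in nulls (log2 0.44 ± 0.08, SE, n = 10 each, limma adjusted p = 0.0134). The difference was 0.34 ± 0.11 under E2 (adjusted p = 0.317) and 0.54 ± 0.11 under placebo (adjusted p = 0.0937).

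Aldh1a7 (chr19:20767553-20767612, minus strand) is a rodent paralog of Aldh1a1. Its level was 6.0, 5.85, 5.74, 5.66 and 6.28 in null livers under E2, against 5.28, 5.52, 5.71, 5.68 and 5.56 in wild-type livers under E2. Under placebo it was 6.34, 6.30, 5.93, 5.97 and 6.04 in null livers, against 5.54, 5.66, 5.27, 5.15 and 5.56 in wild-type livers. The pattern followed that of Aldh1a1, with no overlap between genotypes under placebo and an overlap under E2. Averaged over treatments, Aldh1a7 was 1.43-fold higher in nulls (log2 0.52 ± 0.09, SE, n = 10 each, adjusted p = 0.0110), with differences of 0.36 ± 0.13 under E2 (adjusted p = 0.401) and 0.68 ± 0.13 under placebo (adjusted p = 0.0706). The E2 effect in nulls minus that in wild types was -0.20 ± 0.16 for Aldh1a1 (adjusted p = 0.843) and -0.32 ± 0.18 for Aldh1a7 (adjusted p = 0.734), so a difference in the genotype effect between treatments was not shown.

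Within slides, nulls minus wild types pooled over treatments was 0.709, 0.244, 0.446 and 0.355 for Aldh1a1 and 0.593, 0.603, 0.474 and 0.304 for Aldh1a7, positive on all 4 slides. Slide 4 held only 1 null liver, and slide 3 held no wild-type E2 liver. Both averaged calls held in 30 of 32 other settings. They were lost when arrays were scaled on their median (adjusted p = 0.135 for Aldh1a1 and 0.145 for Aldh1a7) and when only animals with label numbers of 750 or above were kept (0.204 and 0.252), which left 3 null E2, 2 null placebo, 3 wild-type E2 and 5 wild-type placebo livers. Aldh1a7 under placebo passed the test without null placebo animal 3 (adjusted p = 0.0390) or null E2 animal 5 (0.0400).

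**Figure D2:**
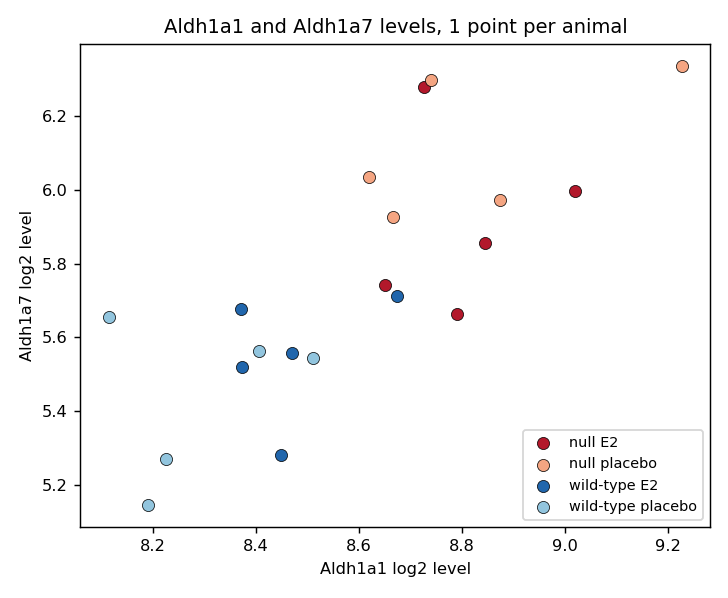
Aldh1a1 log2 level (horizontal axis) against Aldh1a7 log2 level (vertical axis), 1 point per liver, coloured by group. Most null livers lie to the upper right of most wild-type livers, and the genotypes overlap on both axes, where wild-type E2 animal 3 (8.67 and 5.71) lies above the lowest null livers.

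Hepatocyte markers were set beside this pair, since both enzymes are made in hepatocytes. Of 6 hepatocyte markers measured (of 6 listed), 0 were called in nulls averaged over treatments (1 at an unadjusted p under 0.05, beside 12.9% of all genes). All 6 were above 0 in that comparison, as were 51.3% of all genes, and their median log2 difference was 0.06. Under placebo 6 of 6 were also above 0, with a median of 0.08. The part of hepatocyte RNA in the Aldh1a1 and Aldh1a7 differences was not tested. The log2 of their summed intensities ran from 11.9 to 12.2 in null E2 livers, 11.9 to 12.3 in null placebo livers, 11.9 to 12.2 in wild-type E2 livers and 11.9 to 12.2 in wild-type placebo livers. The genes most like Aldh1a1 across the 20 arrays were Nit1, a nitrilase-family enzyme (Pearson r = 0.907), and Mmut, the mitochondrial methylmalonyl-CoA mutase (0.901). Those most like Aldh1a7 were Mdh1, cytosolic malate dehydrogenase (0.897), and Fyb2 (0.895). These are descriptions over 20 arrays that share the genotype difference and the array scaling. Of these 4 genes only Fyb2 passed the test in nulls averaged over treatments (log2 0.76 ± 0.13, adjusted p = 0.0107), while Nit1, Mmut and Mdh1 differed by 0.18, 0.23 and 0.26 with adjusted p of 0.120, 0.119 and 0.0871. The Fyb2 call was lost among animals numbered 750 or above alone (adjusted p = 0.195).

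Cyp26a1 (chr19:37775566-37775625, plus strand) encodes the cytochrome P450 that hydroxylates retinoic acid and starts its clearance, and it is among the most strongly retinoic acid-induced genes known in liver. Its 60-base array probe is shown because the call rests on this probe alone.
Cyp26a1 probe: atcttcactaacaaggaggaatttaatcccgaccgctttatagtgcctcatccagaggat
The level was -1.99, -1.40, -0.87, -1.55 and -1.89 in null livers under E2, against 0.45, -0.48, 0.28, 0.91 and 0.71 in wild-type livers under E2. Every null E2 liver was below every wild-type E2 liver, a separation that 2.5% of all genes showed. Cyp26a1 was 3.77-fold lower in nulls under E2 (log2 -1.91 ± 0.39, SE, n = 5 each, limma adjusted p = 0.0312), with a 95% interval from -2.73 to -1.10.

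Under placebo, Cyp26a1 read -1.09, -2.04, -0.83, -1.19 and -0.57 in null livers, against -2.34, -1.08, -1.20, -0.53 and 0.29 in wild-type livers. The null range lay inside the wild-type range, and the log2 difference was -0.17 ± 0.39 (adjusted p = 0.942). In wild types, E2 livers averaged 0.37 ± 0.53 and placebo livers -0.97 ± 0.96, a log2 difference of 1.35 ± 0.39 (2.54-fold) that missed the threshold (unadjusted p = 0.00271 and adjusted p = 0.315), and the groups overlapped. In nulls, E2 livers averaged -1.54 ± 0.44 and placebo livers -1.14 ± 0.56, a difference of -0.40 ± 0.39 (adjusted p = 0.924). The E2 effect in nulls minus that in wild types was -1.74 ± 0.55, with a 95% interval from -2.90 to -0.59 and an adjusted p of 0.513. The 4 groups in order of mean level were wild-type E2, wild-type placebo, null placebo and null E2, and every neighbouring pair in that order overlapped.

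Within slides, Cyp26a1 in null E2 livers minus wild-type E2 livers was -2.21, -1.75 and -2.11 on the 3 slides that held both groups. These rested on 1 null and 2 wild-type livers, 2 and 2, and 1 and 1. Over 33 other settings this difference ran from -2.13 to -1.47 and passed the threshold in 22. It was lost under median scaling (adjusted p = 0.0619), with no filter on dim probes (0.0690) and among animals numbered 750 or above alone (0.335). It was also lost without null E2 animal 1 (0.0940), 2 (0.0662), 4 (0.0723) or 5 (0.0939) and without wild-type E2 animal 1 (0.0723), 3 (0.0541), 4 (0.0900) or 5 (0.10). In nulls averaged over treatments the difference was -1.04 ± 0.28 (adjusted p = 0.0816), and it passed without wild-type placebo animal 1 (-1.21, adjusted p = 0.0231).

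**Figure D3:**
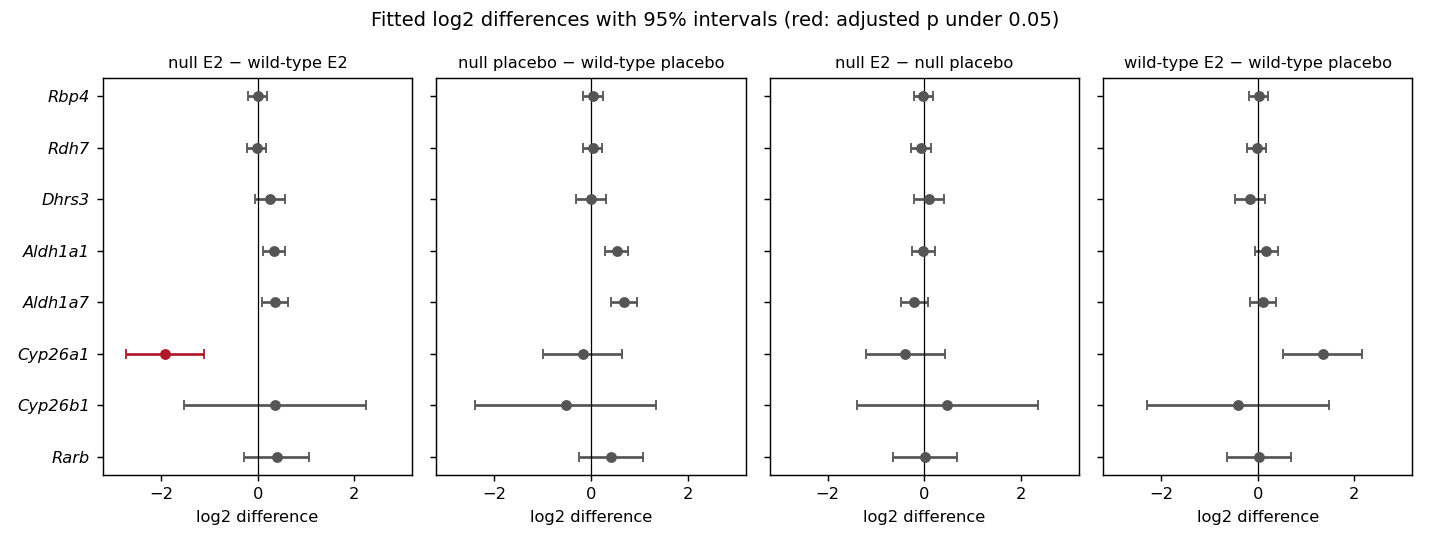
Fitted log2 difference (horizontal axis, points) with 95% interval (bars) for the 8 genes in 4 comparisons, null E2 minus wild-type E2, null placebo minus wild-type placebo, null E2 minus null placebo, and wild-type E2 minus wild-type placebo. Cyp26a1 in null E2 minus wild-type E2 (-1.91) is the point past the adjusted threshold, and the Cyp26b1 intervals are the widest in every panel.

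The genes most like Cyp26a1 across the 20 arrays were Smtnl2, a smoothelin-like protein (r = 0.863), and Tsen54, a subunit of the tRNA splicing endonuclease (0.845). Unlike Cyp26a1, both passed the test for E2 in wild types. Smtnl2 averaged 1.02 ± 0.62 in wild-type E2 livers and -1.14 ± 0.59 in wild-type placebo livers (log2 2.16 ± 0.30, adjusted p = 0.000672). Tsen54 averaged 3.27 ± 0.34 in wild-type E2 livers and 2.29 ± 0.21 in wild-type placebo livers (log2 0.98 ± 0.15, adjusted p = 0.00241). The Tsen54 call was lost under median scaling (adjusted p = 0.418) and when only the groups compared were fitted (0.0585). In nulls, E2 minus placebo was -0.002 for Smtnl2 and -0.21 for Tsen54. Both were chosen for likeness to Cyp26a1, so the shared E2 pattern is not independent evidence for it.

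Cyp26b1 (chr6:84521952-84522011, minus strand), a further retinoic acid-clearing P450, varied more between animals than between groups. Its level was -0.76, 1.44, 0.94, -0.37 and 0.64 in null E2 livers and -2.32, 1.71, -0.36, -0.99 and 1.47 in null placebo livers. It was -0.98, -1.43, 0.32, 0.85 and 1.33 in wild-type E2 livers and -2.12, -1.25, 1.33, 1.61 and 2.56 in wild-type placebo livers. Each group held animals on both sides of 0, and the lowest and highest livers of all 20 differed 29.6-fold. Its SD within groups was 1.51, larger than that of 99.8% of the 21998 genes, whose median was 0.23. The probe was well above background on 20 of 20 arrays. With this spread, the 95% interval of nulls minus wild types averaged over treatments ran from -1.41 to 1.24, which is 0.377-fold to 2.36-fold.

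The other members had smaller spread. The SD within groups was 0.66 for Cyp26a1 (larger than 94.2% of genes) and 0.53 for Rarb (89.1%). It was 0.24 for Dhrs3 (50.8%), 0.21 for Aldh1a7 (43.0%), 0.17 for Aldh1a1 (31.3%), 0.14 for Rdh7 (17.5%) and 0.14 for Rbp4 (16.8%). The 2 clearance genes and the receptor gene varied between animals more than most genes did, and the 5 transport and dehydrogenase genes lay at or below the middle of all genes. Group means of the former ran from -1.54 to 0.43, and those of the latter from 5.44 to 9.93. Genes were not matched on level in this ranking, so spread that goes with a dim signal was not separated.

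Rarb encodes retinoic acid receptor beta, and its promoter carries the DR5 printed above. It had 3 probes. The brightest (chr14:17263367-17263426, minus strand) averaged -0.19 ± 0.31 in null E2 livers, -0.21 ± 0.53 in null placebo livers, -0.59 ± 0.42 in wild-type E2 livers and -0.62 ± 0.76 in wild-type placebo livers. The groups overlapped, and nulls minus wild types averaged over treatments was 0.40 ± 0.22 (adjusted p = 0.492). The second probe (chr14:17264648-17264707) was well above background on 19 of 20 arrays and gave 0.44 ± 0.25 for the same comparison (adjusted p over all probes = 0.525). The third (chr14:17651424-17651483) was not well above background on any of the 20 arrays, so it has no test. For E2 minus placebo the brightest probe gave 0.03 ± 0.32 in wild types and 0.01 ± 0.32 in nulls, and the second probe gave 0.07 ± 0.36 in wild types and -0.04 ± 0.36 in nulls.

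After group means were removed, 28 pairs of members were compared over the 20 animals for shared variation, and 0 passed an adjusted p of 0.05. The closest pair was Cyp26b1 and Rarb, with Pearson r = 0.750 (permutation p = 0.00206, adjusted p = 0.0577) and Spearman rho = 0.690 (p = 0.00554, adjusted p = 0.140). Without the 2 animals farthest from the median of Cyp26b1, r was 0.656. Over all 20 animals, with slide means removed besides group means, r was 0.710, which then passed (adjusted p = 0.0287). Wild-type placebo animal 5 was the highest of its group for Cyp26a1, Cyp26b1 and Rarb. Dhrs3 and Cyp26b1 followed (r = 0.617, adjusted p = 0.112, rho = 0.600, adjusted p = 0.140), then Rbp4 and Rdh7 (r = 0.565, adjusted p = 0.112, rho = 0.585, adjusted p = 0.140). The Aldh1a1 and Aldh1a7 pair had r = 0.344 within groups (adjusted p = 0.396, rho = 0.281, adjusted p = 0.525), and under median scaling it passed (r = 0.781, adjusted p = 0.0234). Under that scaling 6 pairs passed in all, under quantile scaling 2, and in the authors' deposited log2 values 2, with Cyp26b1 and Rarb and Dhrs3 and Cyp26b1 among them in all 3.

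**Figure D4:**
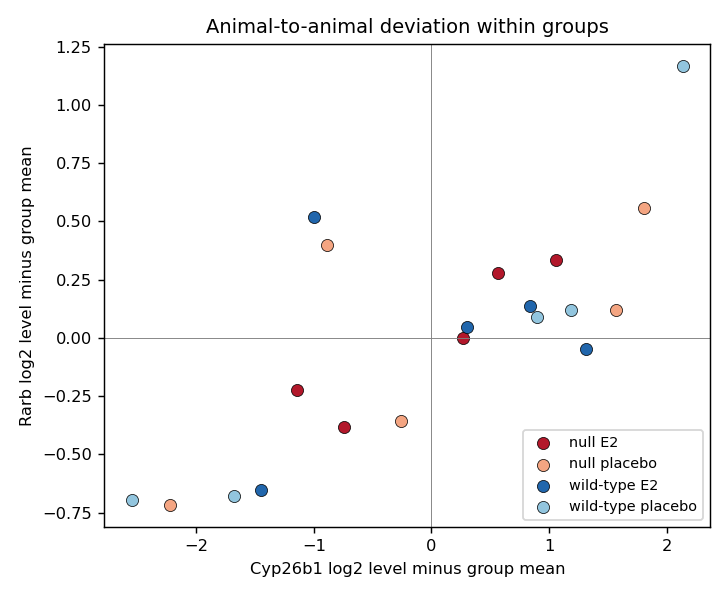
Deviation of Cyp26b1 (horizontal axis) and Rarb (vertical axis) from the group mean, in log2 units, 1 point per liver, coloured by group. Most livers lie along a rising diagonal (r = 0.750), with 1 wild-type E2 and 1 null placebo liver above it on the left.

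The other genes of the pathway were described through 6 lists with 65 genes, of which 55 were measured and 2 were called in any of the 6 comparisons. Over all genes, the share called in 1 comparison ran from 0.00455% to 0.696%, and the share called in any of the 6 was not computed. Retinol transport and storage had 9 of 12 genes measured and 0 called, with 1 at an unadjusted p under 0.05 in nulls averaged over treatments. In nulls averaged over treatments 8 of its 9 genes were above 0 with a median of 0.12, and the carotenoid-cleaving Bco2 differed by log2 0.16 ± 0.08 (adjusted p = 0.448). Over all genes, 51.3% were above 0 with a median of 0.00.

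Among retinol and retinal oxidoreductases, 16 of 20 genes were measured. In nulls averaged over treatments, where 0.409% of all genes were called higher, 1 of them was higher and 0 lower. It was Rdh5, a retinol dehydrogenase known from the visual cycle of the retinal pigment epithelium. Rdh5 read 4.68, 4.78, 4.56, 4.74 and 5.05 in null E2 livers, against 4.14, 4.29, 4.46, 4.18 and 3.93 in wild-type E2 livers. Under placebo it read 4.79, 4.53, 4.51, 4.65 and 4.72 in null livers, against 4.16, 4.40, 3.98, 3.86 and 4.39 in wild-type livers. All 10 null livers lay above all 10 wild-type livers, as in 0.0683% of genes. Rdh5 was 1.44-fold higher in nulls averaged over treatments (log2 0.52 ± 0.09, adjusted p = 0.00615) and 1.48-fold higher under E2 (0.56 ± 0.12, adjusted p = 0.0458). The averaged call was lost when arrays were scaled on the median (0.0891) and among animals numbered 750 or above alone (0.143). The call under E2 held in 9 of 33 other settings and was lost in 14 of 20 settings without 1 animal, with adjusted p from 0.0518 to 0.155.

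In each of the next 3 lists, 0 genes were called in any of the 6 comparisons and 0 reached an unadjusted p under 0.05 in nulls averaged over treatments. Retinal oxidation to retinoic acid had 5 of 5 other genes measured. Aldh1a3 differed by -0.37 ± 0.21 in nulls averaged over treatments (adjusted p = 0.504) and Aldh8a1 by 0.09 ± 0.05 (adjusted p = 0.529). Retinoic acid binding and clearance had 3 of 5 measured, with 0.12 ± 0.10 for Cyp2c39 (adjusted p = 0.703) and 0.16 ± 0.34 for Fabp5, a fatty acid and retinoic acid carrier (adjusted p = 0.913). Retinoid receptors and partners had 10 of 10 measured, with -0.25 ± 0.12 for Rarg (adjusted p = 0.406) and 0.11 ± 0.07 for Rxrg (adjusted p = 0.540).

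Of 18 further genes known as retinoic acid targets, 15 were measured and 1 was called, among other comparisons for E2 in wild types (0.318% of all genes). Tgm2, transglutaminase 2, which crosslinks proteins, was not called for E2 in nulls and was higher with E2 in wild types. Its level was 4.99, 5.04, 4.70, 4.94 and 4.88 in null E2 livers, against 5.64, 4.85, 5.16, 5.28 and 4.88 in null placebo livers. It was 6.78, 6.28, 5.84, 6.25 and 6.10 in wild-type E2 livers, against 5.22, 5.26, 5.30, 5.22 and 4.95 in wild-type placebo livers. Every wild-type E2 liver was above every other liver, and 1.51% of genes separated E2 from placebo in wild types. The E2 difference was -0.25 ± 0.16 in nulls (adjusted p = 0.860) and 1.06 ± 0.16 in wild types, a 2.09-fold rise (adjusted p = 0.00145). The E2 effect was smaller in nulls than in wild types by the test of the difference itself (-1.31 ± 0.22, adjusted p = 0.0107), and nulls were 2.53-fold lower under E2 (-1.34 ± 0.16, adjusted p = 0.000101). The test of the difference was lost with slide as a fixed block (adjusted p = 0.0619) and among animals numbered 750 or above alone (0.208). For E2 in wild types, 11 of the 15 targets were above 0 with a median of 0.00, beside 50.6% and 0.00 over all genes.

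**Figure D5:**
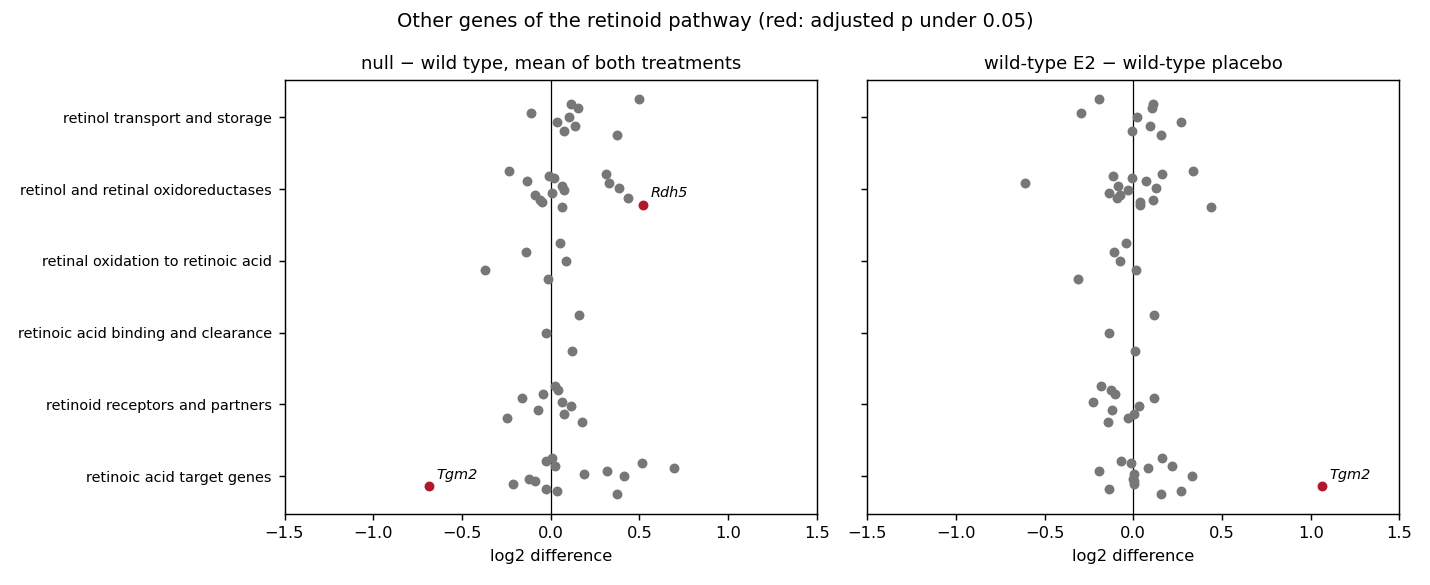
Log2 difference (horizontal axis) of every measured gene in the 6 pathway lists (rows, 1 point per gene), for null minus wild type averaged over treatments (left) and wild-type E2 minus wild-type placebo (right). Rdh5 (0.52) and Tgm2 (-0.68) pass the threshold on the left and Tgm2 (1.06) on the right, and no other gene does.

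Markers of other liver cells were measured beside these genes, because stellate cells hold most of the retinoid and express several retinoid genes. All 12 stellate markers passed the filter. The log2 of their summed intensities ran from 6.87 to 7.65 in null E2 livers, 6.97 to 7.66 in null placebo livers, 7.03 to 7.80 in wild-type E2 livers and 7.28 to 7.68 in wild-type placebo livers. In nulls averaged over treatments, 51.3% of all genes were above 0 with a median of 0.00, and 0.696% were called. Of the stellate markers, 3 of 12 were above 0 in that comparison, the median was -0.21, and 1 was called lower. That marker was Ngfr, a neurotrophin receptor. It averaged -0.57 ± 0.38 in null E2 livers and 0.67 ± 0.28 in wild-type E2 livers (log2 -1.24 ± 0.21, adjusted p = 0.00668) and correlated with Cyp26a1 at r = 0.796 over the 20 arrays. Among animals numbered 750 or above alone, the Ngfr calls were lost under E2 (adjusted p = 0.233) and averaged over treatments (0.190). The part of stellate cells in the Cyp26a1 difference was not tested. Of the other lists, Kupffer cell (8 of 8 measured), sinusoidal endothelial (8 of 8) and cholangiocyte markers (6 of 6) had 0 called in nulls under E2 and 0 at an unadjusted p under 0.05, with medians of -0.18, -0.16 and -0.13. Of 5 adipocyte markers, Cidec, a lipid droplet protein, and Cfd, the secreted protease adipsin, were measured, and neither was called in any of the 6 comparisons. For E2 in wild types they differed by 0.94 ± 0.38 (unadjusted p = 0.0231, adjusted p = 0.519) and 0.91 ± 0.54 (adjusted p = 0.671). The E2 effect in nulls minus that in wild types was -0.82 ± 0.54 for Cidec (adjusted p = 0.781) and -1.57 ± 0.76 for Cfd (adjusted p = 0.679), in the direction of the Cyp26a1 values. Nulls minus wild types was -0.19 ± 0.38 for Cidec and -0.13 ± 0.54 for Cfd under E2, and 0.63 ± 0.38 and 1.44 ± 0.54 under placebo (Cfd unadjusted p = 0.0145, adjusted p = 0.344). The part of adipocyte RNA in the Cyp26a1 difference was not tested. Of 5 pancreas acinar markers, 0 passed the filter.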

How the data were processed

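Per the file headers, images were quantified in Agilent Feature Extraction 10.10.1.1, and the deposited intensity of each spot is background-subtracted and detrended. The authors also deposited log2 values for 32526 probes, with limma named in the submitters' processing notes; set against the scanner files, each column tracked log2 of the median signal (r from 0.999 to 1.0) and had a median of 7.85, and the table served as an alternative. Here log2 intensity minus each array's 75th percentile was used. Non-uniform spots (0 to 16 per array) were left out and no spot was saturated. A probe was kept when 4 of 5 arrays in any group read it well above background, and the brightest stood for its gene. Names came from RefSeq for 27235 probes by accession.

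Differences were tested with limma 3.58.1 (R 4.3.3) in 1 fit of 4 group means over 20 arrays, 2-sided. P-values were adjusted by Benjamini-Hochberg across the 21998 genes in each of 6 contrasts, with a threshold of 0.05. Errors marked SE are those of the fit. The fit was tested on simulated data. Correlations used 100000 permutations within groups, as permutation tests in Python 3.11.15 with numpy 2.4.6. The number of arrays limits the precision. Named were all members, called genes of each pathway list or else the 2 with the smallest p in nulls averaged over treatments, the 2 genes most like each called member, and Esr1; Ngfr, Cidec and Cfd were named after their values were seen. A gene that this rule covers is not reported here. The members and lists were chosen with earlier results of these data known.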

Additional observations from a re-analysis of the deposited data

Results flagged for a closer look

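At the third Rarb probe, wild-type placebo animal 5 read -5.18, apart from the other 4 animals of its group, which lay between -6.96 and -6.80. No array was well above background at this probe. This was 1 of 40 groups of 5 animals examined in this way, and chance gives about 1 in 20.

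The E2 effect differed between genotypes by the test of the difference for 3 genes named above. In nulls it was lower than in wild types by log2 -1.31 for Tgm2 (adjusted p = 0.0107), -1.19 for Tsen54 (0.0197) and -2.16 for Smtnl2 (0.0464). The Tsen54 value held in 25 of 32 other settings and was lost in 3 of the 20 that leave out 1 animal (null E2 animal 1 or 4, or null placebo animal 2, adjusted p from 0.0515 to 0.0554). The Smtnl2 value held in 10 of 32 and was lost in 17 of those 20 (adjusted p from 0.0505 to 0.120). The same test for Cyp26a1 gave -1.74 and did not pass (adjusted p = 0.513).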

How the results depend on the processing

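No called difference changed direction in any of 34 other settings. Of 1466 member differences called in neither setting, 123 changed sign. With arrays scaled on their median, which moves the median of all genes by -0.22 for E2 in wild types, -0.12 for E2 in nulls, 0.10 for the difference between E2 effects and 0.11 for nulls under E2, the genes called were 32 for E2 in wild types (70 in the reported fit), 0 for E2 in nulls (1), 18 for the difference (36), 7 for nulls under placebo (16), 39 for nulls under E2 (102) and 49 for nulls averaged (153), with 0 members in the last 2. With only animals numbered 750 or above they were 41, 0, 10, 2, 35 and 49, again with 0 members. With no filter, E2 in nulls gave 0 genes, nulls under placebo 8, nulls averaged 70, and nulls under E2 0 members. Slide as a fixed block gave 2 for E2 in nulls, 9 for nulls under placebo and 68 for nulls averaged. Only the groups compared gave 46 for E2 in wild types, 0 for E2 in nulls and 8 for nulls under placebo. The mean of probes gave 0 for E2 in nulls. At a threshold of 0.1, nulls under placebo gave 42 genes and 2 members, and nulls averaged 431 genes. Without each animal in turn, genes called ran from 50 to 87 for E2 in wild types, 0 to 2 for E2 in nulls, 31 to 40 for the difference, 6 to 46 for nulls under placebo, 67 to 120 for nulls under E2 and 77 to 273 for nulls averaged. Members ran from 0 to 0 in the first 3, 0 to 1 in the next 2, and 2 to 3 for nulls averaged. Animals with the same replicate number were not treated as pairs in the reported fit. Same-numbered pairs correlated at -0.163 to 0.245 (median 0.086), with 12 of 30 over 0.1. Different-numbered pairs correlated at -0.314 to 0.304 (median -0.021), with 25 of 120 over 0.1. Whether replicate numbers mark pairs was not tested. The replicate block gave 0 genes for E2 in nulls and moved no other count of calls by over 1.5 times. Cyp26a1 in nulls averaged passed with normexp background correction (-0.82, adjusted p = 0.0455) and in the deposited values (-0.90, 0.0467). Member pairs called were 6 under median scaling, 2 under quantile scaling, 2 in the deposited values and 2 with slide means removed. The causes were not tested. Dim probes limit what the third Rarb probe can show.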

Other observations

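Cyp26b1 was compared with other genes within groups, and only the closest genes were kept. How many genes varied together with it was not counted. The genes closest to it after group means were removed were Fbxl8 (r = 0.873) and Zfp354b (0.869), and Lrat, which esterifies retinol for storage in stellate cells, ranked 8th (0.849). These were chosen after their values were seen and are descriptions over 20 livers that share array scaling.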
